A study of Caenorhabditis elegans with 6 samples.

Results

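The Patched-related proteins of Caenorhabditis elegans are large membrane proteins with a sterol-sensing domain, a block of membrane-spanning segments also found in proteins that handle cholesterol. They were gathered here by name, as the genes whose symbols begin with ptr- (patched-related) or ptc- (patched), together with che-14, daf-6, scp-1, ncr-1 and ncr-2. This gave 32 of the 22010 genes measured, of which 24 were ptr genes, 3 were ptc genes and 5 were the genes added by name. The estimated counts of all transcripts of a gene were summed, and 31 of the 32 genes had enough counts to be tested.

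The libraries were made from whole animals at the L4 stage, the last larval stage, grown from bleached embryos at 20°C on E. coli OP50. In 3 libraries the animals were pals-25(icb98) mutants, and in the other 3 they were WT at pals-25. The sample titles name the strain N2 for the WT libraries and give only the allele for the mutant ones. The mutant and WT strains shared the reporter transgene icbIs4[chil-27p::gfp, col-12p::mCherry], so no library came from animals without it. The allele icb98, which introduces an early stop codon close to the C-terminus of the protein, came from an EMS screen for chil-27p::GFP expression without infection and is labelled a gain-of-function allele. The mutant group is therefore 1 allele in 1 strain, and other mutations of that strain cannot be told apart from icb98. The comparison asks which genes differ in level when this allele is present and no pathogen is.

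In flies and vertebrates, Patched is the receptor of the secreted ligand Hedgehog, and it acts on the membrane protein Smoothened. Nematodes lack Smoothened, yet they have an expanded set of Patched-related proteins and a large family of secreted hedgehog-related proteins. Many of the worm genes are needed for molting, for the building of the cuticle and its precursor matrix at the apical face of the epidermis, or for the shape of epithelial tubes. NCR-1 and NCR-2 are relatives of the human cholesterol transporter NPC1, and SCP-1 is the relative of SCAP, the sterol sensor that escorts the transcription factor SREBP.

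Between 40709626 and 47297002 estimated counts were assigned per library. In the pals-25(icb98) libraries any pair differed by over 2-fold at 230 to 280 genes, and WT replicates 1 and 3 did so at 280. WT replicate 2 stood apart, with 2960 and 2658 such genes against the other WT libraries, so the counts of called Patched-related genes and of the other gene lists are also given without it. The stop codon does not remove the mutated transcript, and pals-25 was measured at 4.08, 4.23 and 3.78 CPM in pals-25(icb98), against 1.88, 2.47 and 1.77 CPM in WT (log2 difference 0.98, SE 0.17, edgeR adjusted p = 0.0145), which does not check the genotype. CPM are counts scaled to a common library total. The measured markers of epidermis, intestine, pharynx, muscle, neurons, glia and germline were all detected. Of the markers chosen, 6 of 7 for epidermis, 4 of 5 for glia and 4 of 5 for seam cells were measured. The replicates are named as biological in the sample titles and nothing further says how they were separated, so p-values measure the spread between these libraries.

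The Patched-related genes differed between the strains in both directions, and more were lower than higher in the mutant. Of the 31 tested genes, 5 were higher in pals-25(icb98) (16.1%) and 10 were lower (32.3%) by edgeR's quasi-likelihood test at an adjusted p under 0.05. Over all 16166 genes tested, 9.80% were higher and 10.7% were lower. The median log2 difference, pals-25(icb98) minus WT, was -0.70 over the 31 genes and 0.0054 over all genes tested. The 5 higher genes were ptr-3, ptr-23, ptr-12, ncr-1 and ptc-1. The 10 lower genes were ptr-4, che-14, ptc-3, ptr-19, ptr-25, daf-6, ptr-15, ptr-18, ptr-11 and ptr-14. In RNA from whole animals, fewer cells of a type and less RNA per cell cannot be told apart.

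The separation of the libraries was wider than the list of calls, as it was over all genes. All 3 pals-25(icb98) libraries lay above all 3 WT libraries for 7 of the 31 genes, against 24.4% of all genes, and below them for 15, against 24.8% of all genes. The share that lay above was thus near that of all genes. For the remaining 9 genes the groups overlapped. The 15 called genes all had groups that did not overlap, and so did 7 genes that were not called. Without WT replicate 2, 9 genes were higher and 14 lower, against 19.3% and 18.1% of all genes in that fit. All 15 genes called with the full set of libraries were among them. Calls of 8 genes held whichever library was left out, namely ptr-3, ptr-23, ncr-1, ptc-3, ptr-19, daf-6, ptr-11 and ptr-14.

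**Figure D1:**
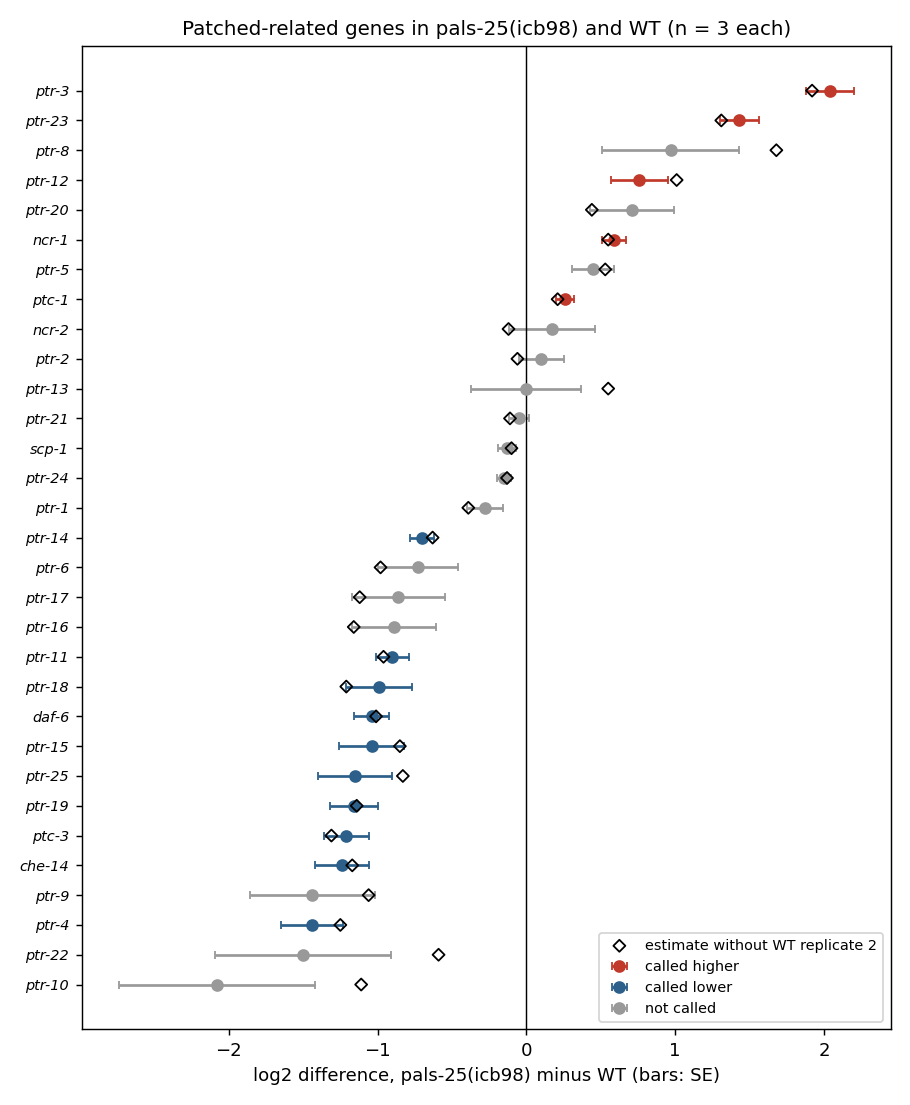
The log2 difference in CPM, pals-25(icb98) minus WT, is shown for the 31 tested genes with its standard error (n = 3 libraries each); filled points are coloured by the edgeR call and open diamonds are the estimates without WT replicate 2. The 5 higher genes run up to 2.04 for ptr-3, the 10 lower ones down to -1.44 for ptr-4, and the diamonds of ptr-8, ptr-13, ptr-22 and ptr-10 lie far from their points.

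The Patched genes proper went in opposite directions. ptc-1 (ZK675.1, chromosome II 7893222 to 7900515 in WBcel235) is needed in the germline for cytokinesis. It had 242.4, 224.6 and 230.9 CPM in pals-25(icb98), against 198.0, 180.5 and 203.9 CPM in WT. The mutant libraries were all higher, by a small margin, with a log2 difference of 0.26 (SE 0.06, edgeR adjusted p = 0.0323). This call was lost when any library other than WT replicate 2 was left out (edgeR adjusted p up to 0.117). ptc-3 (Y110A2AL.8, II 2845412 to 2852593) is an essential gene whose product lowers cellular cholesterol. It had 154.6, 176.4 and 127.0 CPM in pals-25(icb98), against 377.6, 302.5 and 378.7 CPM in WT. No mutant library came near the lowest WT library, which was WT replicate 2, and the log2 difference was -1.21 (SE 0.15, edgeR adjusted p = 0.00527). The third gene, ptc-2 (F21H12.4, II 6083473 to 6085924), is annotated as a pseudogene. It had 2, 2 and 6 counts in pals-25(icb98), against 1, 4 and 0 in WT, too few to test.

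Per length of transcript, the order of the 2 genes changed between the strains. Levels between genes are compared in TPM, estimated counts divided by effective transcript length and scaled to a common total. ptc-3 was at 31.6 ± 5.42 TPM in pals-25(icb98) and 73.4 ± 8.25 TPM in WT (SD, n = 3 each), where it was the most abundant of the 32 genes. ptc-1 was at 41.2 ± 0.933 TPM in pals-25(icb98) and 34.7 ± 1.71 TPM in WT. Thus ptc-1 stood above ptc-3 in the mutant and below it in WT.

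che-14 (F56H1.1, I 5746633 to 5754306) encodes a protein related to Dispatched, which in other animals releases Hedgehog from the cells that make it. In the worm it acts in apical secretion by epithelial cells. It had 8.51, 10.6 and 6.65 CPM in pals-25(icb98), against 18.5, 21.9 and 20.3 CPM in WT. The groups stood well apart, with a log2 difference of -1.24 (SE 0.18, edgeR adjusted p = 0.00879), although the call was lost without pals-25(icb98) replicate 1 (edgeR adjusted p = 0.0551). daf-6 (F31F6.5, X 14888488 to 14894326) limits the width of the channel that sheath and socket glia form around sensory endings. It had 10.2, 13.3 and 11.4 CPM in pals-25(icb98), against 24.6, 25.2 and 22.2 CPM in WT. All WT libraries were close to each other and far above the mutant ones, and the log2 difference was -1.04 (SE 0.12, edgeR adjusted p = 0.00391).

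Of the 24 ptr genes, 3 were higher, 7 were lower and 14 were not called. ptr-3 (C41D7.2, II 362484 to 367555) differed most among the called genes. It had 34.8, 29.6 and 29.4 CPM in pals-25(icb98), against 7.31, 6.35 and 9.23 CPM in WT. Its lowest mutant library was far above its highest WT library, and the log2 difference of 2.04 (SE 0.16, edgeR adjusted p = 0.000938) corresponds to a 4.10-fold higher level. ptr-23 (ZK270.1, I 14906792 to 14913083) acts with the mucin-like gene osm-8 in the response to osmotic stress. It had 182.9, 154.3 and 159.4 CPM in pals-25(icb98), against 68.8, 51.4 and 64.5 CPM in WT. These groups were also clearly separated, at a log2 difference of 1.43 (SE 0.13, edgeR adjusted p = 0.0018). At 45.8 ± 3.50 TPM in pals-25(icb98) and 17.2 ± 2.36 TPM in WT (SD, n = 3 each), ptr-23 was the most abundant of the 32 genes in the mutant.

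The call of ptr-12 (K07A3.2, I 2587527 to 2595294) was weaker. It had 30.4, 29.4 and 29.2 CPM in pals-25(icb98), against 15.1, 22.9 and 14.4 CPM in WT. The mutant libraries were nearly equal, whereas WT replicate 2 lay between them and the other WT libraries, and the log2 difference was 0.76 (SE 0.19, edgeR adjusted p = 0.0382). The call was lost when any library other than WT replicate 2 was left out (edgeR adjusted p up to 0.135), and without WT replicate 2 the difference was 1.01 (SE 0.07, edgeR adjusted p = 5.66e-07).

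**Figure D2:**
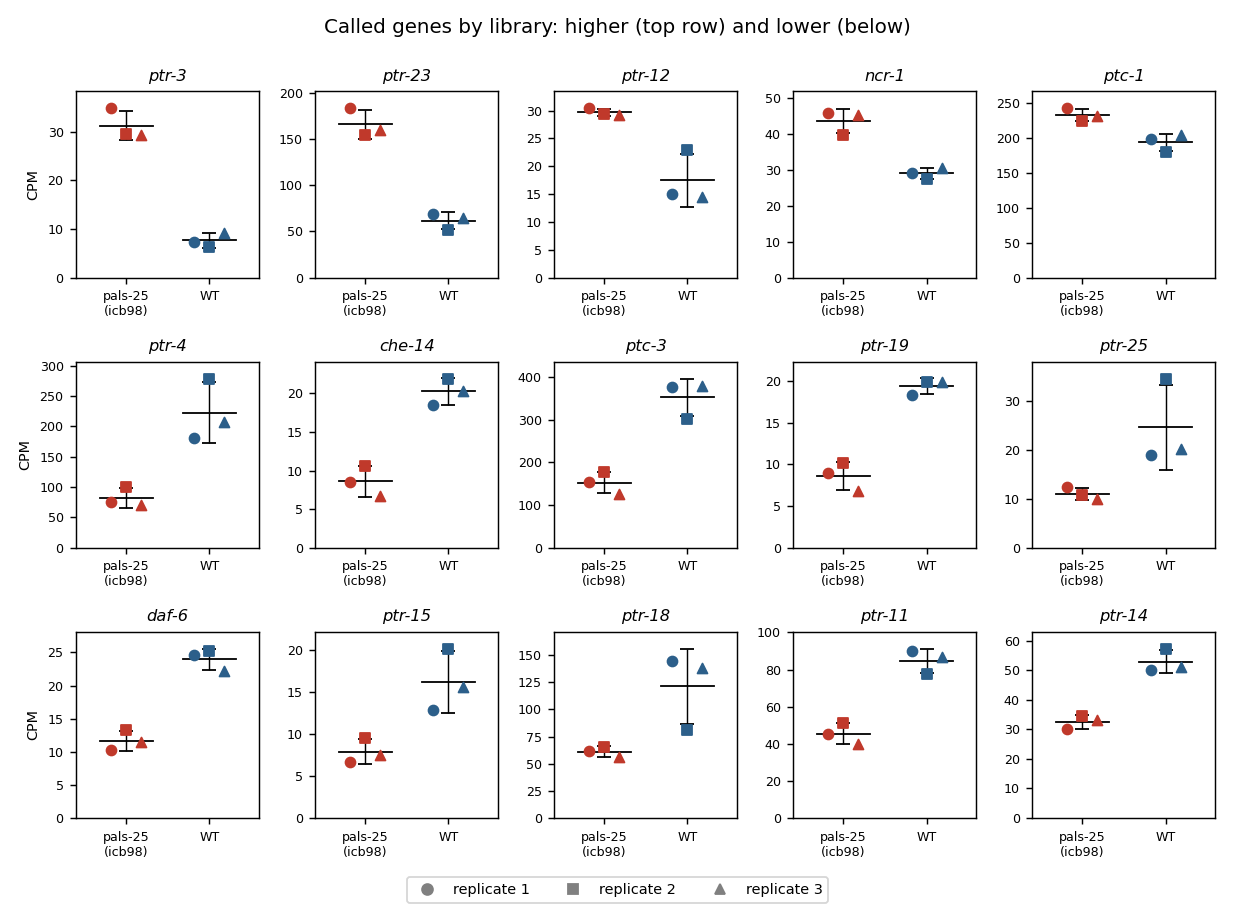
CPM of the 15 called genes are plotted by library, pals-25(icb98) in red and WT in blue, with the mean (long line) and SD (bars) of 3 libraries; circles, squares and triangles mark replicates 1, 2 and 3, and each axis starts at 0. In no panel do the groups overlap, and the square of WT replicate 2 stands away from the other WT points for ptr-12, ptr-25 and ptr-18, among others.

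Among the lower ptr genes, ptr-4 (C45B2.7, X 6060758 to 6065986), which is needed to assemble the apical matrix that precedes each new cuticle, showed the largest difference. It had 74.8, 100.7 and 70.1 CPM in pals-25(icb98), against 181.6, 279.1 and 207.6 CPM in WT. WT replicate 2 was the highest library and pals-25(icb98) replicate 2 the highest of its group, and the log2 difference was -1.44 (SE 0.21, edgeR adjusted p = 0.0088). Without pals-25(icb98) replicate 1 the call was just lost (edgeR adjusted p = 0.0536). Its level was 24.0 ± 5.20 TPM in pals-25(icb98) and 65.9 ± 15.8 TPM in WT (SD, n = 3 each), next to that of ptc-3 in WT.

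ptr-19 (Y39A1B.2, III 10781853 to 10791176) had 9.0, 10.1 and 6.76 CPM in pals-25(icb98), against 18.3, 19.9 and 19.9 CPM in WT. The WT libraries were almost equal and every mutant library lay far below them, with a log2 difference of -1.16 (SE 0.16, edgeR adjusted p = 0.00693). ptr-11 (F56C11.2, I 160172 to 169763) had 45.1, 51.3 and 39.8 CPM in pals-25(icb98), against 90.2, 77.6 and 86.5 CPM in WT. Here the lowest WT library was WT replicate 2, still above every mutant library, and the log2 difference was -0.90 (SE 0.11, edgeR adjusted p = 0.00482). ptr-14 (R09H10.4, IV 10615427 to 10620964), the only gene of the 32 on chromosome IV, had 29.95, 34.5 and 33.3 CPM in pals-25(icb98), against 49.96, 57.3 and 51.2 CPM in WT. Each group was tight, and the log2 difference was -0.70 (SE 0.08, edgeR adjusted p = 0.00415).

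For the other 3 lower genes the call depended on the libraries in the fit. ptr-25 (F43D9.1, III 10488124 to 10500239) had 12.4, 10.9 and 9.98 CPM in pals-25(icb98), against 19.0, 34.7 and 20.3 CPM in WT. WT replicate 2 was well above the other WT libraries. The log2 difference was -1.15 (SE 0.25, edgeR adjusted p = 0.0287) with it and -0.83 (SE 0.10, edgeR adjusted p = 5.03e-05) without it. The call was lost without any 1 mutant library or without WT replicate 3 (edgeR adjusted p up to 0.111). ptr-15 (T07H8.6, V 6966396 to 6970000) had 6.60, 9.48 and 7.49 CPM in pals-25(icb98), against 12.8, 20.1 and 15.6 CPM in WT. The groups did not overlap, at a log2 difference of -1.04 (SE 0.22, edgeR adjusted p = 0.0238), and the call was lost without pals-25(icb98) replicate 1 or 3 or WT replicate 3 (edgeR adjusted p up to 0.102). A stretch of 30 bases of ptr-15 exon overlaps mec-1 on the opposite strand. Exons of ptr-10 (92 bases), ptr-8 (55), ptr-1 (49 and 31) and ptc-2 (150 and 34) also overlap genes on the opposite strand. Whether counting used strand is not given in the sources used here.

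ptr-18 (Y38F1A.3, II 12965546 to 12978171), which takes part in clearing the hedgehog-related protein GRL-7 from the matrix, had 61.3, 65.8 and 55.7 CPM in pals-25(icb98), against 144.7, 81.3 and 137.7 CPM in WT. WT replicate 2 lay nearer to the mutant libraries than to the other WT ones. The log2 difference was -0.99 (SE 0.22, edgeR adjusted p = 0.0304), the call was lost when any library other than WT replicate 2 was left out (edgeR adjusted p up to 0.115), and without WT replicate 2 the difference was -1.21 (SE 0.07, edgeR adjusted p = 2.42e-07).

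The genes tied to intracellular sterol did not move as a group. ncr-1 (F02E8.6, X 4472244 to 4488857), the NPC1 relative whose loss leaves worms sensitive to low cholesterol, had 46.0, 39.8 and 45.4 CPM in pals-25(icb98), against 29.3, 27.4 and 30.5 CPM in WT. The groups were well apart, and ncr-1 was higher by a log2 difference of 0.59 (SE 0.08, edgeR adjusted p = 0.00618), or 1.505-fold. Its paralog ncr-2 (F09G8.4, III 8258345 to 8265805), which together with ncr-1 keeps worms from entering the dauer stage, had 19.4, 20.3 and 19.8 CPM in pals-25(icb98), against 21.3, 9.98 and 21.7 CPM in WT. The low WT library was WT replicate 2. ncr-2 was not called (log2 difference 0.17, SE 0.29, edgeR adjusted p = 0.706), and without WT replicate 2 the difference was -0.12 (SE 0.07, edgeR adjusted p = 0.197). scp-1 (D2013.8, II 9334014 to 9338896) had 35.8, 35.9 and 34.5 CPM in pals-25(icb98), against 36.8, 40.6 and 39.2 CPM in WT. Its groups did not overlap but lay close, and scp-1 was not called (log2 difference -0.13, SE 0.06, edgeR adjusted p = 0.15).

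A further 14 ptr genes were not called, and their log2 differences ran from -2.08 for ptr-10 to 0.97 for ptr-8. The promoter of ptr-10 is widely used to mark glia. ptr-10 had 3.64, 7.06 and 3.69 CPM in pals-25(icb98), against 8.16, 39.9 and 12.6 CPM in WT. The mutant libraries were all lower, but WT replicate 2 was far above every other library and the standard error was 0.66 (edgeR adjusted p = 0.0773). ptr-8 was the reverse, with 18.2, 17.1 and 22.5 CPM in pals-25(icb98), against 5.94, 17.5 and 6.03 CPM in WT. Here WT replicate 2 reached the level of the mutant libraries and the groups overlapped. Without it the log2 difference of ptr-8 was 1.68 (SE 0.13, edgeR adjusted p = 4.56e-06).

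Leaving out WT replicate 2 raised the share of all genes called higher from 9.80% to 19.3%, and lower from 10.7% to 18.1%. Among the Patched-related genes it added 8 genes to the edgeR calls, 4 of them higher and 4 lower. Beside ptr-8, the higher ones were ptr-13 (0.55, edgeR adjusted p = 0.00118), ptr-5 (0.53, edgeR adjusted p = 0.00311) and ptr-20 (0.44, edgeR adjusted p = 0.000937). The lower ones were ptr-16 (-1.16, edgeR adjusted p = 1.95e-05), ptr-17 (-1.12, edgeR adjusted p = 0.0011), ptr-6 (-0.98, edgeR adjusted p = 0.000453) and ptr-1 (-0.39, edgeR adjusted p = 0.00211). For ptr-16 the levels were 36.8, 41.5 and 32.8 CPM in pals-25(icb98), against 84.2, 41.5 and 80.8 CPM in WT, and WT replicate 2 again sat among the mutant libraries. ptr-6 had the same arrangement, with 22.1, 25.2 and 18.6 CPM in pals-25(icb98), against 44.0, 22.97 and 42.6 CPM in WT.

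**Figure D3:**
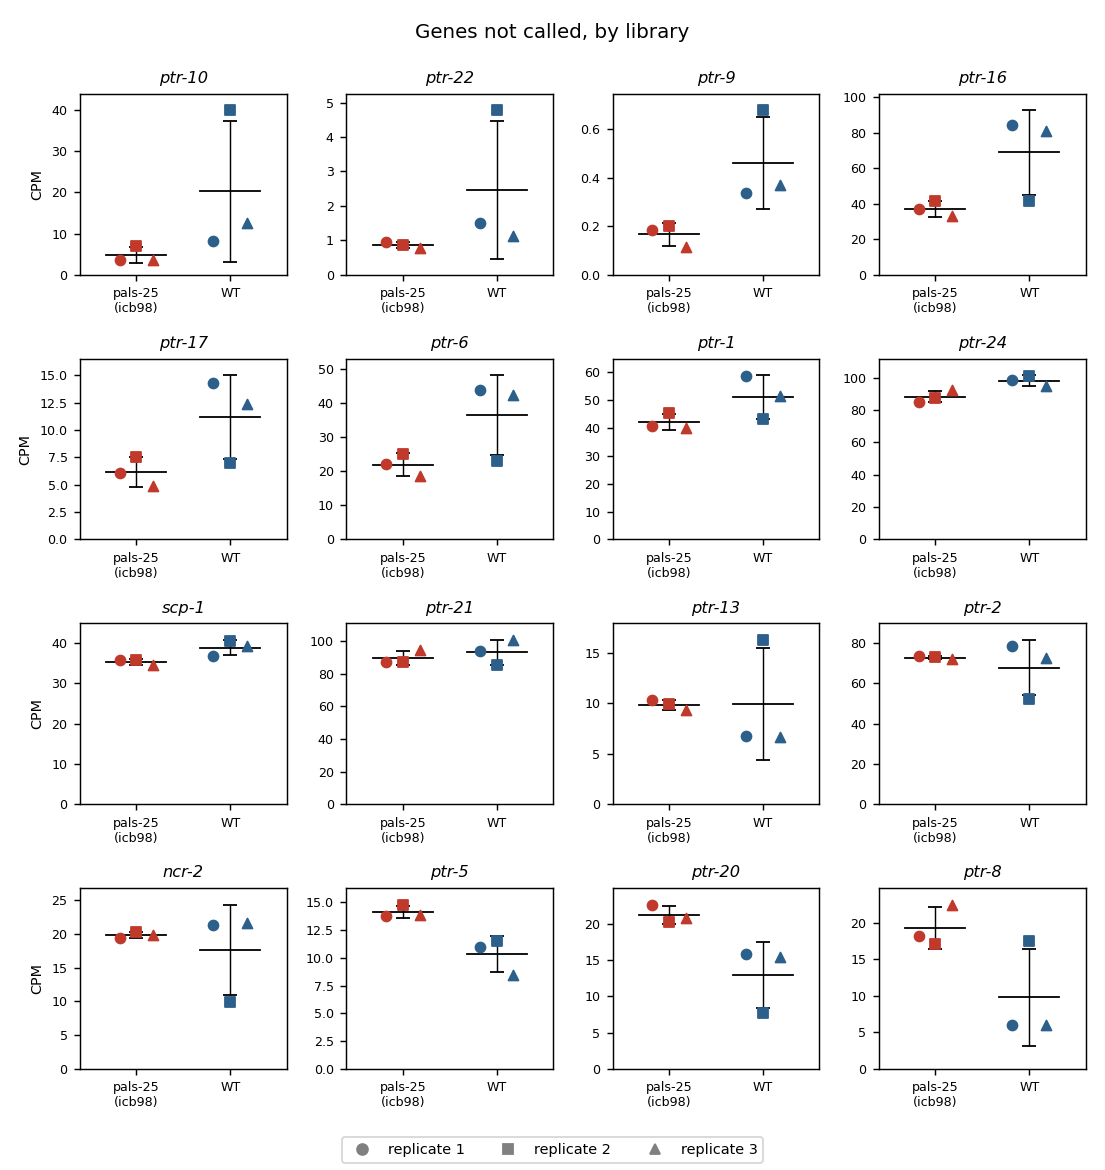
CPM of the 16 tested genes that were not called are plotted by library, drawn as for the called genes with pals-25(icb98) in red and WT in blue, mean and SD of 3 libraries, and axes that start at 0. The square of WT replicate 2 is the highest point for ptr-10, ptr-22 and ptr-13 and lies at the mutant level for ptr-16, ptr-6 and ptr-8.

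WT replicate 2 was over 2-fold above the mean of WT replicates 1 and 3 for 4 of 31 genes (ptr-10, ptr-22, ptr-8 and ptr-13) and over 2-fold below it for 2 (ncr-2 and ptr-20). Among the 10 lower genes it was the highest of all 6 libraries for 6 and the lowest WT library for 3, so it did not shift them in 1 direction. Among the 5 higher genes it was the lowest of all libraries for 4. Within the mutant, pals-25(icb98) replicate 2 was the highest mutant library for 9 of the 10 lower genes and replicate 3 the lowest for 7. The median SD of log2 CPM across the 31 genes was 0.14 in pals-25(icb98) and 0.31 in WT, against 0.10 in pals-25(icb98) and 0.19 in WT over all genes tested. The Patched-related genes thus varied more between libraries of a group than the median gene did, in the mutant as in WT.

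Levels over the family spanned from ptc-3 at 52.5 TPM, ptr-4 at 44.99 TPM and ptc-1 at 37.9 TPM (means of all 6 libraries) down to ptr-22 at 0.587 TPM and ptr-9 at 0.115 TPM, with the pseudogene ptc-2 at 0.028 TPM. Of the 5 most abundant genes, ptr-24 alone was not called. It measured 29.5 ± 1.35 TPM in pals-25(icb98) and 33.2 ± 1.53 TPM in WT (SD, n = 3 each; log2 difference in CPM -0.15, SE 0.05, edgeR adjusted p = 0.0825). ptr-2, which is needed in the early embryo, differed little in mean level, with 22.99 ± 0.360 TPM in pals-25(icb98) and 21.6 ± 4.16 TPM in WT (SD, n = 3 each; log2 difference in CPM 0.10, SE 0.15, edgeR adjusted p = 0.649). The genes lie on all 6 chromosomes, 10 of them on II and 8 on I, and called genes were found on each chromosome.

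**Figure D4:**
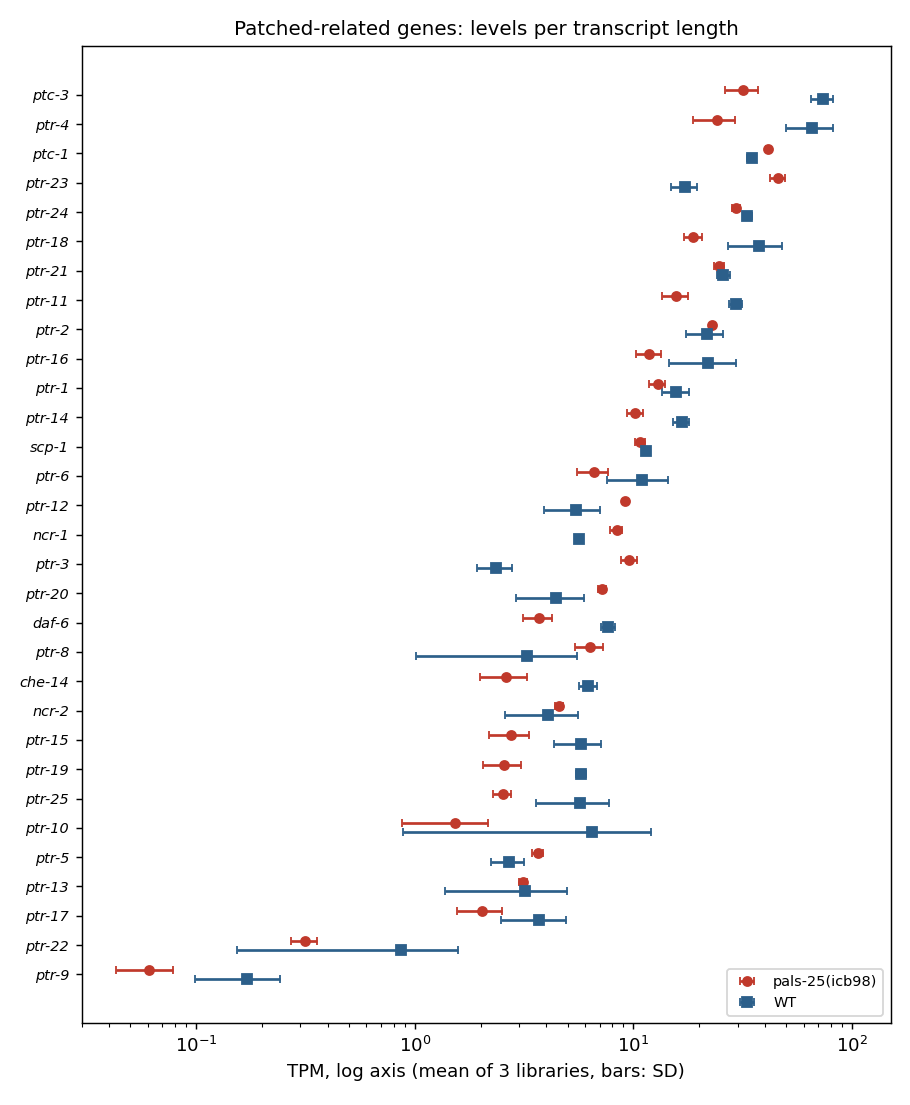
Levels of the 31 tested genes are shown in TPM on a log axis as the mean and SD of 3 libraries, pals-25(icb98) as red circles and WT as blue squares, ordered by the mean of all 6 libraries. ptc-3 leads in WT at 73.4 TPM and ptr-23 in pals-25(icb98) at 45.8 TPM, and ptr-22 and ptr-9 have means below 1 TPM in both strains.

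The files list 54 transcripts for these genes, and 14 genes have more than 1. Of 44 transcripts tested, 3 were higher in the mutant and 8 were lower, against 3.68% higher and 2.43% lower of all 24607 transcripts tested. Reads shared by transcripts of a gene are divided by the authors' estimate, so these values are less certain than gene totals. The main transcript of ptc-3, Y110A2AL.8a.1, had 17.7, 22.8 and 15.1 TPM in pals-25(icb98), against 47.2, 36.5 and 43.5 TPM in WT. It was lower like the gene (log2 difference -1.18, SE 0.18, edgeR adjusted p = 0.0267). Y110A2AL.8b.1 showed a like difference but was not called (-1.03, SE 0.22, edgeR adjusted p = 0.0578).

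The c transcripts of ptc-3 were assigned almost no reads in the mutant. In the annotation, Y110A2AL.8c.1 starts at its own first exon (II 2852045 to 2852128, minus strand), downstream of the first exon of the a and b transcripts (II 2852456 to 2852593). Y110A2AL.8c.1 was assigned 1, 0 and 0 counts in pals-25(icb98), against 256, 121 and 62 counts in WT, a ratio of 0.00222 (exact 95% counting interval 5.62e-05 to 0.0125) with edgeR adjusted p = 0.0171. Y110A2AL.8c.2 was assigned 0 counts in pals-25(icb98), against 55 in WT, and was too low to test. In WT, Y110A2AL.8c.1 was between 0.409% and 1.45% of the TPM of the gene, so these transcripts carried little of the difference in ptc-3. The interval covers counting error only, and not the division of reads between transcripts. That division can jump within a group, as F02E8.6.1 of ncr-1 was assigned 263, 0 and 63 counts in pals-25(icb98).

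The transcripts of ptr-11 and ptr-3 were not called alike. F56C11.2a.1 of ptr-11 had 9.72, 10.2 and 9.32 TPM in pals-25(icb98), against 27.1, 22.6 and 19.0 TPM in WT, and was lower (log2 difference -1.21, SE 0.14, edgeR adjusted p = 0.0134). F56C11.2a.2 had 5.54, 7.70 and 4.36 TPM in pals-25(icb98), against 4.09, 4.78 and 10.6 TPM in WT. Its groups overlapped (log2 difference -0.14, SE 0.43, edgeR adjusted p = 0.883), and the difference between the 2 transcripts was not tested. C41D7.2.2 of ptr-3 had 8.10, 7.26 and 7.68 TPM in pals-25(icb98), against 1.98, 1.23 and 1.63 TPM in WT, and was higher (log2 difference 2.27, SE 0.21, edgeR adjusted p = 0.00639). C41D7.2.1 was not called (1.37, SE 0.57, edgeR adjusted p = 0.221).

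**Figure D5:**
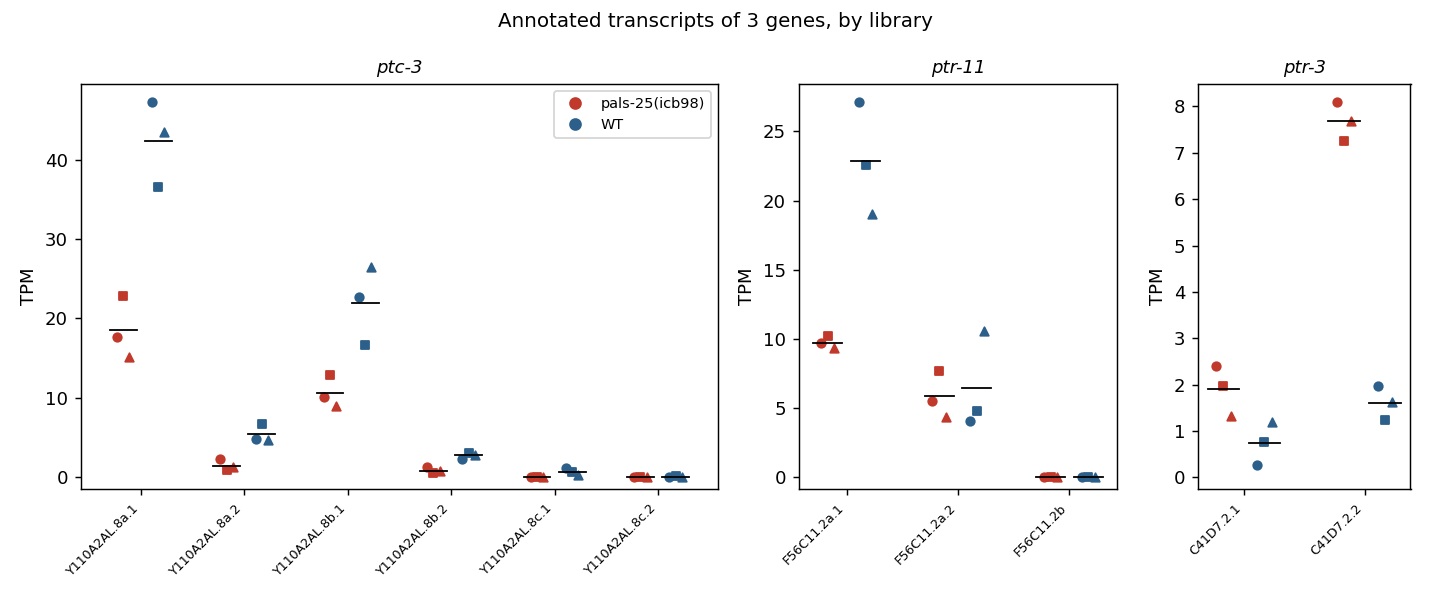
TPM of each annotated transcript of ptc-3, ptr-11 and ptr-3 are plotted by library, pals-25(icb98) in red left of WT in blue, with the mean of 3 libraries as a line and circles, squares and triangles for replicates 1, 2 and 3. Y110A2AL.8a.1, F56C11.2a.1 and C41D7.2.2 show separated groups, and F56C11.2a.2 shows groups that overlap.

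The secreted products of the hedgehog-related genes are the candidate partners of Patched-related proteins. Of 61 measured genes 44 were tested, of which 4 were higher (9.09%, against 9.80% of all genes) and 14 lower in the mutant (31.8%, against 10.7%), with a median log2 difference of -0.60. The share called higher was thus near that of all genes. grl-4, of the ground-like group, had 167.0, 144.2 and 192.1 CPM in pals-25(icb98), against 28.7, 21.5 and 34.2 CPM in WT (log2 difference 2.58, SE 0.20, edgeR adjusted p = 0.000993). qua-1, which is needed for molting, had 189.2, 239.6 and 161.1 CPM in pals-25(icb98), against 550.9, 530.1 and 598.4 CPM in WT (log2 difference -1.51, SE 0.15, edgeR adjusted p = 0.00266). For neither gene did the groups come near each other. grl-21 (2.55, edgeR adjusted p = 0.00204) and grd-6 (2.20, edgeR adjusted p = 0.00175) were higher, and grd-1 (-1.31, edgeR adjusted p = 0.00622) and wrt-9 (-0.82, edgeR adjusted p = 0.00658) were lower. With 1 library left out, the higher genes numbered 3 to 11 and the lower ones 4 to 20, the highest of each without WT replicate 2 and the fewest lower ones without pals-25(icb98) replicate 1. Over all genes, 4.16% to 19.3% were higher and 2.01% to 18.1% lower in these fits, with the same libraries at the ends. With the replicate number as a block, 6 hedgehog-related genes were lower.

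Of 22 tested genes of molting and of the apical matrix, 1 was higher (4.55%, against 9.80% of all genes) and 9 were lower (40.9%, against 10.7%), and 12 were not called, with a median log2 difference of -1.53. mlt-7, a peroxidase that cross-links cuticle, was the higher one, with 123.1, 114.8 and 139.4 CPM in pals-25(icb98), against 35.6, 34.1 and 36.8 CPM in WT (1.83, SE 0.08, edgeR adjusted p = 0.000104). lrp-1, a megalin relative needed in the epidermis for molting, had 153.2, 179.9 and 133.2 CPM in pals-25(icb98), against 328.4, 446.9 and 368.2 CPM in WT (-1.29, SE 0.15, edgeR adjusted p = 0.0049). acn-1 (-1.18, edgeR adjusted p = 0.00403) and mlt-8 (-0.97, edgeR adjusted p = 0.00543) were also lower. Of 10 regulators of the molting cycle, 3 were called and all were lower, against 10.7% of all genes called lower, namely the Period relative lin-42 (-1.10, edgeR adjusted p = 0.00361) and the transcription factors blmp-1 (-0.98, edgeR adjusted p = 0.00696) and grh-1 (-0.99, edgeR adjusted p = 0.0182). The call of grh-1 was lost without any 1 mutant library (edgeR adjusted p as high as 0.088).

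The summed levels of the molting lists also separated the strains, whereas the sum of the hedgehog-related genes did not. The hedgehog-related sum was 3283.1 to 3703.6 CPM in pals-25(icb98), against 3073.0 to 4309.3 CPM in WT. For the 22 molting and matrix genes the sum was 1901.7 to 2770.3 CPM in pals-25(icb98), against 4496.4 to 8529.5 CPM in WT, with WT replicate 2 at the top. For the molting regulators the sum was 401.2 to 486.0 CPM in pals-25(icb98), against 715.6 to 914.8 CPM in WT. Leaving out 1 library gave 6 to 13 lower genes among the molting and matrix genes, the most without WT replicate 1. There were 6 without pals-25(icb98) replicate 1 or 3 or WT replicate 3, and 11 without WT replicate 2. Among the regulators, leaving out 1 library gave 2 to 5, the fewest without any 1 mutant library and the most without WT replicate 2. Over all genes, 2.01% to 18.1% were lower in these fits, the most without WT replicate 2. The part of the molting cycle, and of stage within L4, in the results for Patched-related genes was not tested.

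The next list holds genes of lipid synthesis tied to SREBP, the partner of SCP-1. It also includes sbp-1 and mdt-15, which are not synthesis genes. Of the 21 genes listed, 1 was higher (4.76%, against 9.80% of all genes) and 7 were lower (33.3%, against 10.7%), with a median log2 difference of -0.45. The higher one was sbp-1, the SREBP gene itself, with 67.1, 60.9 and 68.0 CPM in pals-25(icb98), against 41.7, 48.5 and 43.0 CPM in WT (0.56, SE 0.08, edgeR adjusted p = 0.0075). The fatty acid-activating enzyme acs-1 was lower (-0.70, edgeR adjusted p = 0.00597), as were pcyt-1 (-0.73, edgeR adjusted p = 0.0172) of phosphatidylcholine synthesis and the elongase elo-2 (-1.01, edgeR adjusted p = 0.0215). The last 2 calls were lost without any 1 mutant library (edgeR adjusted p as high as 0.0858 for pcyt-1 and 0.0922 for elo-2). The count of lower genes was 1 without any 1 mutant library, 4 without WT replicate 1, 3 without WT replicate 3 and 12 without WT replicate 2, when 5 were higher. The share of all genes called lower was 2.01% to 3.85% without a mutant library, 6.45% without WT replicate 1, 3.51% without WT replicate 3 and 18.1% without WT replicate 2.

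Of 9 tested genes of sterol and dafachronic acid metabolism, the hormone pathway fed by cholesterol, 1 was higher (11.1%, against 9.80% of all genes) and 2 were lower (22.2%, against 10.7%), with a median log2 difference of -0.46. The nuclear receptor gene nhr-8 was higher (0.57, edgeR adjusted p = 0.0379). Lower were the reductase gene emb-8 (-0.48, edgeR adjusted p = 0.00822) and daf-12, the receptor of dafachronic acid (-0.38, edgeR adjusted p = 0.0237). The call of nhr-8 was lost without any 1 mutant library or WT replicate 1 (edgeR adjusted p up to 0.126), and that of daf-12 without any 1 mutant library or WT replicate 3 (edgeR adjusted p up to 0.0904). Lower genes numbered 1 without any 1 mutant library and 4 without WT replicate 2.

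Markers were also counted by tissue, beside 9.80% of all genes called higher and 10.7% lower. Of 6 epidermal markers tested, 2 were called and both were lower. The sum of the 6 was 2089.7 to 2416.7 CPM in pals-25(icb98), against 2303.8 to 3181.1 CPM in WT, where WT replicate 2 was lowest. These ranges overlapped. Of 4 glial markers, 1 was called, as lower, with sums of 156.5 to 169.2 CPM in pals-25(icb98), against 191.8 to 197.6 CPM in WT. Among 5 oocyte markers 1 was called, as higher, and their sum was 587.9 to 699.6 CPM in pals-25(icb98), against 219.1 to 438.3 CPM in WT, with WT replicate 2 lowest. Calls were not confined to these sets. Of 5 markers each, intestine and body wall muscle had 1 higher, pharynx 1 lower, and excretory canal 1 higher and 1 lower. Of 3 seam cell markers tested, 1 was higher and 1 lower. No marker of neurons, germline or sperm was called with all libraries in the fit. The glial call was lost without any 1 mutant library or WT replicate 3, the oocyte call without any library other than WT replicate 2, and 1 epidermal call without pals-25(icb98) replicate 1. Without WT replicate 2, all 5 oocyte markers were called higher, 3 epidermal markers lower and 1 glial marker lower. Sperm then had 2 higher and 1 lower, germline 1 higher and 1 lower, and neurons 1 higher. Intestine had 2 higher, body wall muscle 1 higher, and pharynx and seam cells each 1 higher and 1 lower. The excretory canal had 2 higher and 1 lower. In that fit 19.3% of all genes were called higher and 18.1% lower. None of the markers measured was at 0 in every library. The part of these differences in the results for Patched-related genes was not tested.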

How the data were processed

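RNA was sequenced from 3 pals-25(icb98) and 3 WT libraries, grouped by the genotype in the labels. The authors estimated transcript abundance with kallisto against the WS235 transcriptome and tested it with sleuth, but versions, read length and strandedness are not stated in the labels or methods. Each deposited file holds the estimated counts, lengths and effective lengths of transcripts, as written by the authors. Here, 35862 transcripts were summed to 22010 genes by sequence name, and 21842 of these matched the Ensembl WBcel235 annotation, whose coordinates are given. Counts were rounded and tested with edgeR 4.0.16 in R 4.3.3 (quasi-likelihood, robust, TMM, minimum count 10, Benjamini-Hochberg over 16166 genes, threshold 0.05), without a block, after the authors' design. Sleuth was not run here. TPM were computed here. Transcripts were tested likewise; leaving out libraries was not run for them.

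Alternatives were DESeq2 1.42.0, limma-voom (limma 3.58.1), other scalings, filters, length-scaled counts, a replicate block and each library left out. All called genes, the ptc genes and the genes added by name have values per library; of other lists, up to 3 called genes of smallest adjusted p in each direction are named, and further genes (ptr-2, ptr-6, ptr-8, ptr-10 and ptr-16) were chosen after their values were seen. The genes and lists were chosen with earlier results of these data known. Planned comparisons of promoters and proteins were not made here. The fit was tested on simulated data with 200 changed genes. No library pair of a group was within sampling noise.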

Additional observations from a re-analysis of the deposited data

How the results depend on the processing

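Against 5 higher and 10 lower Patched-related genes (median log2 difference -0.70), DESeq2 called 16 lower. Leaving out 1 library gave 3 to 9 higher genes, 5 to 14 lower genes and medians of -0.74 to -0.58. In these fits 4.16% to 19.3% of all genes were higher and 2.01% to 18.1% lower. WT replicate 2 gave the highest counts (9 and 14) and pals-25(icb98) replicate 1 the fewest lower (5); the other fits called 3 higher. The median was -0.73 with upper quartile scaling, -0.49 without a filter (32 genes tested) or with a minimum count of 30 (30 genes), and -0.48 with length-scaled counts (30 genes). No called gene reversed in any alternative; calls held in 66 of 90 fits with a library left out, which hold fewer samples, and in 146 of 150 others, ptr-12 being lost with upper quartile scaling. With the replicate number as a block, 4 were higher and 9 lower, as ptr-12, ptr-18 and ptr-25 were lost and ptr-10 was gained (edgeR adjusted p = 0.0369). The block also gave 6 lower hedgehog-related genes in place of 14, 1010 lower genes over all genes in place of 1729, and ended the call of nhr-8. DESeq2 called 19 molting and matrix genes lower in place of 9, 5 molting regulators in place of 3 and 5 sterol genes in place of 2, and length-scaled counts 1 sterol gene. The numbers mark no shared animals or batch, and deviations of same-numbered libraries correlated at 0.0778, 0.247 and 0.129, so they were not taken as pairs; not every library correlated best with its own number. Reversals were confined to genes not called: without WT replicate 2, ncr-2 (-0.12) and ptr-2 (-0.06); ptr-21 (0.00) without WT replicate 3; and ptr-13, at -0.00, with limma-voom (0.14), length-scaled counts (0.01), the replicate block (0.13), without pals-25(icb98) replicate 3 (0.03) and without WT replicate 2 (0.55, called). With 1 library left out, ncr-2 ran from -0.12 to 0.34, ptr-13 from -0.23 to 0.55, ptr-2 from -0.06 to 0.22 and ptr-21 from -0.11 to 0.00. The causes were not tested. Depth limited ptc-2 and ptr-9, with at most 28 counts in any library.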
